A study of Mus musculus with 4 samples.

Results

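The cells described here are endocardial cells of the mouse heart, chosen on counted transcripts. They held at least 2 of Igfbp5, Cytl1, Gsta4 or Mfap5 and none of the valve genes Cldn11, Enpp2 and Postn. They numbered 1231 of the 21920 cells used from 4 single-cell libraries, with 321 (E12), 532 (E15), 322 (P2) and 56 (adult) in turn. A cell was taken when it met 5 conditions on its UMIs (unique molecular identifiers, each standing for 1 captured transcript). It held at least 1 UMI of the endocardial genes Npr3 and Tmem108. Its UMIs of Npr3 and Tmem108, of Igfbp5, Cytl1, Gsta4 and Mfap5, and of Pla2g7, Prr15 and Apoc1 together outnumbered those of the coronary genes Fabp4, Cldn5, Aplnr and Gpihbp1. It held at least 2 UMIs of Igfbp5, Cytl1, Gsta4 and Mfap5, and more of these than of Pla2g7, Prr15 and Apoc1, which mark another endocardial group. Finally, it held no UMI of the valve genes Cldn11, Enpp2 and Postn. These cells are called Igfbp5/Cytl1 cells. The rule reads the same counts that are reported, so the levels of its 16 genes in the chosen cells are a description only.

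The endocardium is the endothelial sheet that lines the chambers of the heart and faces the blood directly. It signals to the muscle beneath it, feeds cells into the valves and is one source of coronary vessels during development. Npr3, the clearance receptor for natriuretic peptides, marks endocardium against coronary endothelium. Igfbp5 is a secreted binding protein of insulin-like growth factors, Cytl1 a small secreted cytokine-like protein, Gsta4 a glutathione transferase that clears lipid peroxidation products, and Mfap5 a glycoprotein of elastic microfibrils.

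All animals were C57Bl6J mice, with no transgene or treatment named in the labels, and the libraries pooled the hearts of 37 animals of E12, 48 of E15, 21 of P2 and 6 of 8 weeks, called adult. Cells positive for the endothelial surface protein CD31 and negative for the leukocyte protein CD45 were sorted and frozen, from several rounds of preparation for the embryos. After thawing, dead cells were removed with a kit at E12 and E15 and by a second sort at P2 and in the adult, and the enzymatic digestion also differed with stage. With 1 library per stage, stage, library and preparation cannot be told apart, and cells of 1 library are not replicates, so no test between cell groups or stages was made.

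The 5732 (E12), 6062 (E15), 5884 (P2) and 4242 (adult) cells held 8122358, 7079759, 29645059 and 7650091 UMIs. The E12 file listed 737280 barcodes, most of them empty droplets, of which the 5732 deepest were used. Igfbp5/Cytl1 cells held a median of 1296 (E12), 1103 (E15), 4120 (P2) and 2616 (adult) UMIs. The other endocardial cells, which had a UMI of Npr3 or Tmem108 and more of these than of the 4 coronary genes, held 1275, 976, 4659 and 2370. Mitochondrial transcripts took 3.30%, 2.66%, 5.31% and 4.41% of the UMIs of Igfbp5/Cytl1 cells and 3.09%, 2.59%, 4.76% and 4.74% of those of the other endocardial cells. The study scored doublets and filtered on that score downstream of the deposited matrices, and here doublets were scored but kept. A doublet score over 0.15 was found in 6.85%, 11.5%, 2.80% and 0% of Igfbp5/Cytl1 cells and in 7.74%, 10.0%, 0.821% and 0% of the other endocardial cells. Between libraries 255 pairs of cells had the same barcode, at most 1.02% of the smaller library, and 2 of these pairs were Igfbp5/Cytl1 cells in both libraries.

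The label of endocardium was checked against markers that the rule did not use. Nfatc1, Cgnl1, Tmem100, Plvap, Adgrg6, Hapln1, Gata4, Nrg1, Cdh11 and Rspo3, all listed as endocardial genes, summed to 1540 CPM (counts-per-million of the UMIs of the cell group) in the Igfbp5/Cytl1 cells of E12, 1577 in those of E15, 2124 in those of P2 and 3111 in adult ones. In coronary cells, defined by no Npr3 or Tmem108 UMI, at least 2 UMIs of the coronary genes and no valve gene, the same genes summed to 331, 208, 167 and 119 CPM. Plvap, a protein of endothelial diaphragms, was at 399, 534, 862 and 1741 CPM in Igfbp5/Cytl1 cells and at 75.3, 57.4, 48.6 and 20.4 CPM in coronary cells. A UMI of at least 1 of the 8 endothelial genes Pecam1, Cdh5, Kdr, Tek, Tie1, Egfl7, Esam and Erg was present in 88.5% of the Igfbp5/Cytl1 cells at E12, 90.6% at E15 and 100% at both later stages. Npr3 itself, which took part in choosing the cells, was at 601, 659, 422 and 1331 CPM.

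Igfbp5/Cytl1 cells made up 18.7% of the endocardial cells at E12 (95% interval 16.9 to 20.6), 24.9% at E15 (23.1 to 26.8), 27.4% at P2 (24.9 to 30.1) and 56.6% in the adult (46.2 to 66.5). The intervals are exact binomial ones, and like every interval below they cover counting error only, not the spread between animals. As a part of all cells of a library they were 5.60%, 8.78%, 5.47% and 1.32%. The number depends on depth, because a cell must show 2 UMIs. With every cell thinned to 500 UMIs the shares of endocardial cells were 10.0% (8.09 to 12.2), 14.5% (12.6 to 16.5), 35.8% (32 to 39.7) and 53.3% (40.0 to 66.3), after leaving out 83 shallower cells at E12 and 364 at E15. The order of the stages was the same at both depths, and the intervals of E12 and E15 did not overlap that of P2 once the cells were thinned. The whole rule was applied again to the thinned counts, which left 620 endocardial cells at P2 instead of 1175. The P2 share rose on thinning, and the part of the valve condition in the thinned shares was not tested.

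The valve condition changed the share most after birth. Without it, 23.0% (E12), 32.7% (E15), 82.9% (P2) and 81.3% (adult) of endocardial cells met the rest of the rule. At P2, 924 cells were left out for a Cldn11, Enpp2 or Postn UMI alone, against 74 at E12, 172 at E15 and 31 in the adult. The lower limit on UMIs mattered mainly in the embryo. Exactly 2 UMIs of the 4 genes were held by 142, 199, 18 and 1 of the Igfbp5/Cytl1 cells, and 269, 305, 16 and 6 cells stood just outside with 1 UMI. The median cell held 3 such UMIs at E12 and E15, 12 at P2 and 11 in the adult.

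**Figure D1:**
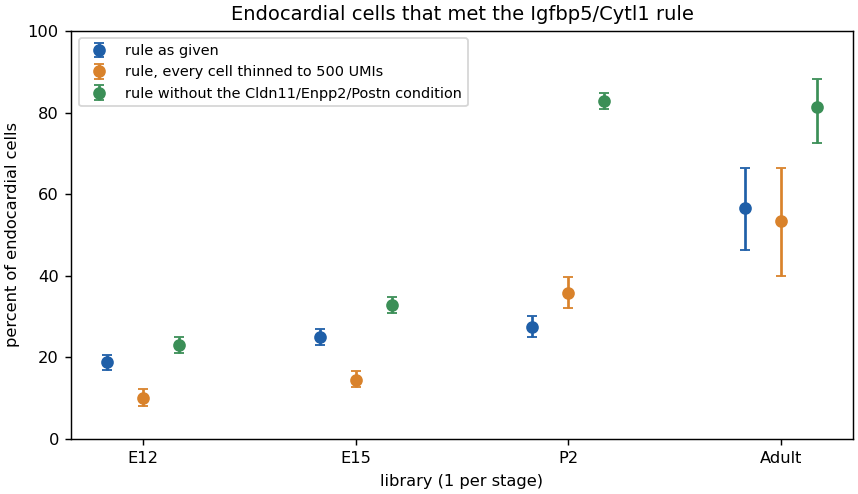
Percent of endocardial cells that met the rule in each library, as given, with each cell thinned to 500 UMIs, and without the condition on Cldn11, Enpp2 and Postn (points, with exact binomial 95% intervals). The points as given run from 18.7% at E12 to 56.6% in the adult, and dropping the valve condition lifts P2 from 27.4% to 82.9%.

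Igfbp5 (chr1:72857932-72874884, minus strand, GRCm38 as annotated by GENCODE M21) was the gene that brought in most cells in the embryo. It was detected in 94.7% (E12), 91.9% (E15), 77.0% (P2) and 64.3% (adult) of Igfbp5/Cytl1 cells, and it was the only one of the 4 genes found in 67.0%, 51.3%, 13.4% and 7.14%. Cytl1 (chr5:37735519-37739820, plus strand) ran the other way, from 4.05% at E12 through 20.7% and 40.4% to 92.9% in the adult. Gsta4 (chr9:78182774-78209349, plus strand) was found in 24.9%, 18.6%, 55.9% and 26.8% of the cells. Mfap5 (chr6:122505845-122529290, plus strand) was found in 7.48%, 22.4%, 60.9% and 19.6%. At the depth of each library, the embryonic cells were thus mostly cells with Igfbp5 alone, the P2 cells mostly held several of the genes, and the adult cells mostly held Cytl1. The P2 cells were deeper, at a median of 4120 UMIs against 1296 at E12 and 1103 at E15. Thinned to 500 UMIs, Gsta4, Mfap5 and Cytl1 were seen in 20.8%, 17.7% and 16.8% of P2 cells and 9.23%, 10.6% and 12.2% of E15 cells. Cytl1 was seen in 82.1% of thinned adult cells. Npr3 lies at chr15:11839896-11907287 on the minus strand.

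Levels were also read in cells that were not chosen on these genes. Across all endocardial cells, taken as those with more UMIs of Npr3 and Tmem108 than of the coronary genes, Igfbp5 was at 552 (E12), 979 (E15), 2020 (P2) and 926 (adult) CPM. Cytl1 was at 9.73, 114, 292 and 1979 CPM. Gsta4 was at 95.6, 96.4, 248 and 156 CPM, and Mfap5 at 17.8, 98.9, 392 and 78.0 CPM. The level of Cytl1 was highest in the adult, from 73 cells, and the other 3 genes were highest at P2. These cells were not limited by the valve condition, and 16.5% (E12), 20.5% (E15), 66.1% (P2) and 31.5% (adult) of them held a Postn UMI. The part of this shift in the levels was not tested. In coronary cells, where free RNA would appear, Igfbp5 was at 125, 116, 106 and 64.6 CPM and Cytl1 at 30.1, 30.2, 11.9 and 70.1 CPM. Gsta4 was at 40.1, 19.1, 13.6 and 12 CPM there, and Mfap5 at 45.2, 14.7, 37.6 and 23.9 CPM. The endocardial levels of Cytl1 and Mfap5 at E12 were below the coronary ones, which rested on 6 and 9 UMIs in 100 cells. Whether these coronary levels were free RNA was not tested. In the E12 droplets with under 100 UMIs, most of them empty, Igfbp5 was at 393 CPM, Gsta4 at 43.9, Mfap5 at 46.7, Cytl1 at 13.7 and Npr3 at 217. The valve gene Postn was at 310 CPM in these droplets, against 187 CPM in all endocardial cells of E12. Igfbp5 at E12 was at 552 CPM in all endocardial cells, a ratio of 4.40 (2.97 to 6.83) to its level in coronary cells. The droplet values give the makeup of free RNA and not its amount in a cell. The part of free RNA in the cells chosen on Igfbp5 alone was not tested. With cells thinned to 500 UMIs, Igfbp5 was seen in 4% (E12), 5.03% (E15), 3.86% (P2) and 1.36% (adult) of coronary cells.

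**Figure D2:**
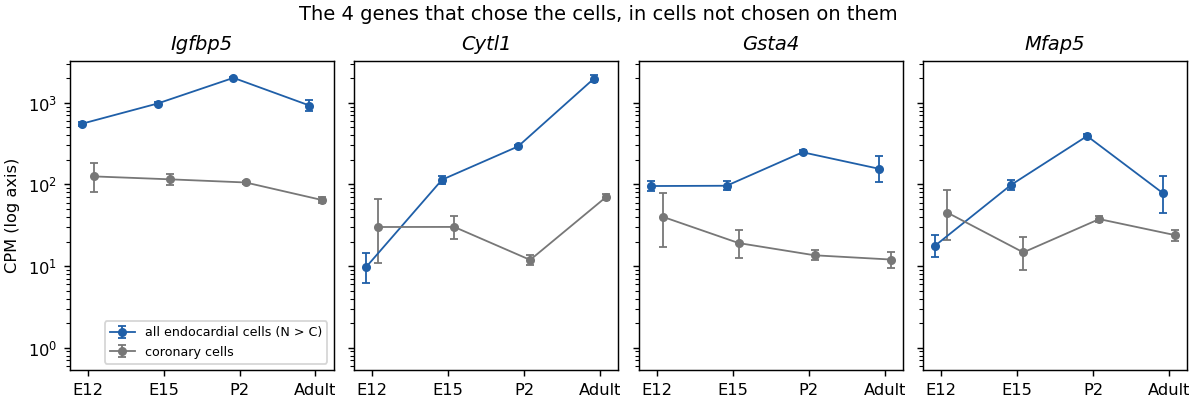
CPM (log axis) of the 4 genes of the rule in all endocardial cells and in coronary cells of each library, with exact Poisson 95% intervals. Cytl1 in endocardial cells goes from 9.73 CPM at E12 to 1979 CPM in the adult, while Igfbp5 peaks at 2020 CPM at P2.

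The 4 genes were then read against each other, by choosing cells with 3 of them and measuring the one left out. Cells chosen by Cytl1, Gsta4 and Mfap5 held Igfbp5 at 1159 CPM at E12 against 539 in endocardial cells without those genes, a ratio of 2.15 (1.53 to 2.95). At E15 the ratio was 2.26 (2.00 to 2.56), at P2 1.75 (1.62 to 1.90) and in the adult 1.55 (0.944 to 2.70). Mfap5 gave the highest ratios, 7.40 (3.30 to 18.2) at E12, 3.55 (2.56 to 4.98) at E15 and 4.56 (3.38 to 6.30) at P2. Its E12 ratio came from 23 UMIs against 9, at a stage where Mfap5 in all endocardial cells was below its coronary level. Cytl1 was at 2.59 (0.869 to 7.56), 1.33 (0.982 to 1.79), 1.61 (1.31 to 2.00) and 4.15 (2.84 to 6.24) from E12 to the adult. Gsta4 was at 0.857 (0.561 to 1.27) at E12, 1.84 (1.33 to 2.54) at E15 and 3.20 (2.57 to 4.02) at P2. In the like-for-like comparison, which is described after the plot of these ratios, Gsta4 at E15 was at 1.39 (0.963 to 1.99) and Igfbp5 at E12 at 1.67 (1.16 to 2.33). With 1 UMI of the other 3 genes instead of 2, which gave 144 chosen cells, Igfbp5 at E12 was at 1.10 (0.918 to 1.31). With 2 UMIs, 36% of the 25 chosen cells and 39.3% of the reference cells held an Igfbp5 UMI. Like-for-like at P2, Mfap5 was at 13.4 (5.68 to 41.5), from 5 UMIs in 45 reference cells, and Gsta4 at 2.08 (1.48 to 3.01). In the adult, Gsta4 had 32 UMIs in the 55 cells chosen by the others and Mfap5 had 22 UMIs in 56 cells, against 0 UMIs in 9 cells without them for each gene. The intervals of these ratios reached down to 0.879 and 0.580, so no difference was detectable at this depth.

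**Figure D3:**
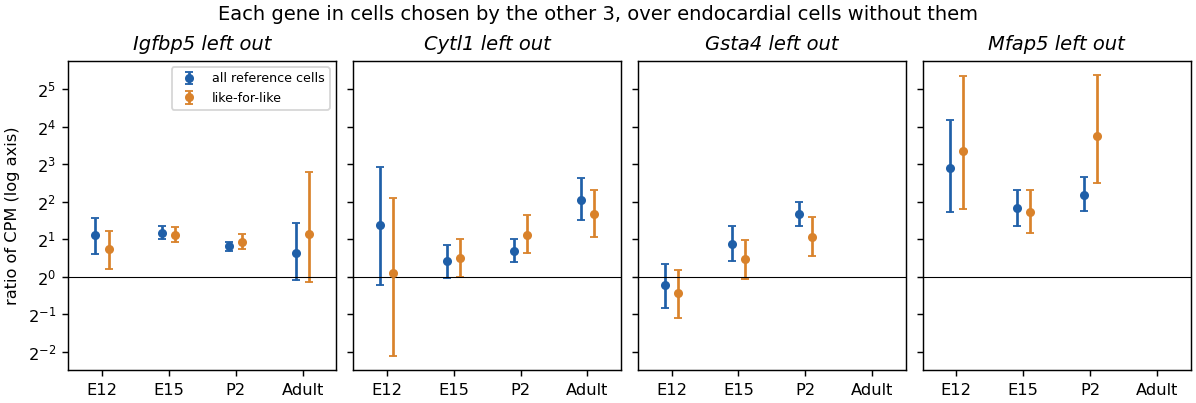
Ratio of CPM (log axis) of each gene in cells chosen by the other 3, over endocardial cells without those 3, with exact 95% intervals, for all reference cells and for cells matched like-for-like. Mfap5 lies above 1 at E12, E15 and P2 in both versions, and Gsta4 at E12 lies below 1 with an interval that spans it.

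What the other endocardial cells were differed with stage. At E12, 5.66% of them had 2 or more UMIs of the 4 genes and 22.2% had a valve gene. At P2, 77.6% had 2 or more such UMIs and 89.1% had a valve gene, so the P2 comparison was largely one of cells without against cells with Cldn11, Enpp2 or Postn. Most of these were Postn calls: 80.3% of the other P2 cells held a Postn UMI, 24.7% an Enpp2 UMI and 13.7% a Cldn11 UMI. Whether cells with such a UMI were valve cells was not tested. Among Igfbp5/Cytl1 cells, 1.56%, 10.3%, 42.9% and 46.4% had as many coronary UMIs as Npr3 and Tmem108 UMIs or more, which no other endocardial cell could have. A second comparison was therefore made like-for-like, after these values had been seen. Both groups were limited to cells with more Npr3 and Tmem108 than coronary UMIs, no valve gene and at least 1 endothelial UMI. This left 279 against 825 cells at E12, 431 against 986 at E15 and 184 against 93 at P2, with median depths of 1298 and 1213, 1107 and 924, and 3979.5 and 3505 UMIs. The adult groups of 30 and 12 cells were too small to compare. Of the other like-for-like cells, 5.45% at E12, 10.4% at E15 and 48.4% at P2 were cells of the Pla2g7, Prr15 and Apoc1 group.

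Few genes separated Igfbp5/Cytl1 cells from all other endocardial cells by 1.5-fold or more. Among genes with at least 20 UMIs expected in each group, 140 of 2906 (4.82%) were past 1.5-fold higher at E12 and 165 (5.68%) past it lower. At E15 these were 165 of 3990 (4.14%) and 154 (3.86%), at P2 190 of 6941 (2.74%) and 225 (3.24%), and in the adult 60 of 880 (6.82%) and 47 (5.34%). The interval lay off 1 for 133 and 119 of them at E12, for 134 and 107 of those of E15, for 167 and 152 of those of P2, and for 33 and 26 of the adult ones. Of 2872 genes measured at 3 or more stages, 0 were past 1.5-fold at all 4 in one direction, 9 were higher and 3 lower at 3 or more, and 804 could be read at all 4.

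The genes named next lay on the higher side at every stage where they were measured, and past 1.5-fold at 2 or more stages. Gap43, a membrane protein of growing cell processes, was at 66.1 CPM against 40.6 at E12 (ratio 1.63, 1.04 to 2.50), 108 against 37.8 at E15 (2.85, 2.02 to 4.04) and 69.1 against 46.2 at P2 (1.50, 1.16 to 1.92), with no UMI in either adult group. Coronary cells held more Gap43, 316, 135 and 74.2 CPM at those stages. Fxyd5, a regulator of the sodium pump, had ratios of 1.71 (1.13 to 2.56), 1.98 (1.48 to 2.64), 2.07 (1.82 to 2.36) and 1.26 (0.785 to 2.04) from E12 to the adult. Adam15, a membrane-bound metalloproteinase, had 2.26 (1.49 to 3.38), 1.59 (1.14 to 2.21) and 1.44 (1.25 to 1.66) at E12, E15 and P2. Heg1, a receptor at endothelial junctions that heart development requires, had 1.72, 1.30, 1.70 and 1.71 from E12 to the adult. Aqp1, the water channel, was at 81.6 against 43.8 CPM at E15, 301 against 154 at P2 and 848 against 529 in the adult. Pdlim1, an actin-associated adaptor, had 1.85, 1.76 and 1.54, and Rasgrp2, an activator of Rap1, had 2.07, 1.72 and 1.63 at E12, E15 and P2. Klk8, a secreted serine protease, was at 174 against 82.1, 202 against 127 and 189 against 128 CPM at these stages.

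Of the listed collagens and other matrix genes, 7 of 18 measured were past 1.5-fold lower at E12, 6 of 19 at E15 and 3 of 21 at P2, with 1, 1 and 3 past it higher. The shares of all measured genes in this comparison were 5.68%, 3.86% and 3.24% lower and 4.82%, 4.14% and 2.74% higher. Col3a1, a fibrillar collagen, was at 181 against 411 CPM at E12 (0.440, 0.346 to 0.552), 140 against 316 at E15 (0.443, 0.351 to 0.554) and 160 against 297 at P2 (0.540, 0.466 to 0.623). Nusap1, a spindle protein, had ratios of 0.228 (0.0898 to 0.482), 0.799 (0.491 to 1.26) and 0.520 (0.291 to 0.874). Ptn, a secreted growth factor, had 0.651, 0.474 and 0.868. The 7 fibroblast markers, of which Col3a1 is one and at E12 the most abundant, summed to 549 against 980 CPM at E12, 439 against 977 at E15 and 698 against 1217 at P2, and their part in these ratios was not tested. Like-for-like the same markers stood at 359 against 488, 277 against 323 and 866 against 824 CPM, and Col3a1 at ratios of 0.633, 0.725 and 0.767, so at P2 the fibroblast markers were no longer lower between cells without a UMI of Cldn11, Enpp2 and Postn. Of the collagens and other matrix genes, 2 of 16, 1 of 16 and 0 of 13 were past 1.5-fold lower like-for-like, and 1, 2 and 2 higher. The shares of all genes measured like-for-like were 3.82%, 4.28% and 4.51% lower and 4.25%, 4.31% and 8.00% higher.

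Each stage had its own extremes. At E12, Kdr, the main VEGF receptor of endothelium, was at 251 against 119 CPM (2.11, 1.67 to 2.64), and S100a6, a calcium-binding protein, had a ratio of 3.60 (2.77 to 4.66), with 38.6% of its like-for-like UMIs in 1 cell. The lowest E12 ratios were of hemoglobin genes. The 9 erythroid markers summed to 304 against 2450 CPM, with Hbb-y the most abundant and 2 genes at 0, and like-for-like to 313 against 575 CPM. At E15, Anxa3, a membrane-binding annexin, had 2.46 (1.78 to 3.38) and Tcf15, a transcription factor of fatty acid handling in endothelium, 2.38 (1.67 to 3.40). Myl7, an atrial muscle gene, had 4.84 at E15 from few cells, 1 of which held 77.0% of its UMIs, and the 12 cardiomyocyte markers summed to 442 against 216 CPM. At P2, Ly6a and Ly6c1, surface proteins of capillaries, were at 68.4 against 17.7 and 64.8 against 22.4 CPM, far below their coronary levels of 528 and 758 CPM. Like-for-like, where every cell had more Npr3 and Tmem108 than coronary UMIs, Ly6a was at 1.33 (0.706 to 2.64) and Ly6c1 at 1.90 (0.937 to 4.26), and the summed ratio of the capillary and artery list was 0.949 there against 1.75 with all other endocardial cells. Ccl2 at P2, a chemokine, was at 23.3 against 88.3 CPM (0.264, 0.178 to 0.379). In the adult, Id2, an inhibitor of helix-loop-helix factors, was at 1194 against 362 CPM (3.30, 2.34 to 4.75).

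In the like-for-like comparison, past 1.5-fold were 108 of 2539 genes (4.25%) higher and 97 (3.82%) lower at E12, 146 of 3385 (4.31%) and 145 (4.28%) at E15, and 220 of 2751 (8.00%) and 124 (4.51%) at P2. Of the genes past 1.5-fold against all other endocardial cells, 71 of 140 higher and 66 of 165 lower were past it like-for-like too at E12, 86 of 165 and 67 of 154 at E15, and 31 of 190 and 5 of 225 at P2. A gene not measured like-for-like could not count here. At P2, 2751 genes were measured like-for-like and 6941 against all other endocardial cells. At E12, collagens and other matrix genes past 1.5-fold lower went from 7 of 18 to 2 of 16 and elastic fiber genes from 5 of 12 to 1 of 8. The summed ratio of erythroid markers went from 0.124 to 0.544, and that of the valve genes outside the rule from 0.619 to 1.03. Of 2131 genes measured at all 3 stages, 11 were past 1.5-fold higher at each and 1, Nrg1, lower at each. The genes given from this comparison were chosen after their values had been seen.

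Cd9, a tetraspanin that organizes membrane proteins, was one of the 11. It was at 114 against 64.3 CPM at E12 (1.78, 1.20 to 2.62), 343 against 171 at E15 (2.00, 1.62 to 2.48) and 1771 against 739 at P2 (2.40, 2.09 to 2.75), and 92.4% of the Igfbp5/Cytl1 cells at P2 had a UMI. Cd34, a sialomucin of blood vessel lining, had ratios of 1.64, 1.61 and 2.16. At P2 against all other endocardial cells, Cd9 was at 1.25 and Cd34 at 1.11, inside 1.5-fold. Plpp3, a phosphatase that degrades lysophosphatidic acid, had 1.90, 1.55 and 1.94, but 0.858 against all other endocardial cells at P2. Fxyd5 had 1.88 (1.16 to 3.02), 2.37 (1.63 to 3.48) and 3.49 (2.21 to 5.80), past 1.5-fold at E12, E15 and P2 in both comparisons. Adam15 had 2.17, 1.64 and 2.96, Klk8 1.86, 1.59 and 2.78, and Anxa2, a membrane-binding receptor for plasminogen, 1.67, 1.54 and 1.71. Against all at P2 these were 1.44, 1.47 and 1.20. The other 4 were Slc9a3r2 (1.76, 1.73 and 2.02), a scaffold beneath the membrane, Sptbn1 (1.69, 1.60 and 1.57), a spectrin, and C1qtnf6 and Ap3s1, each between 1.53 and 1.74 at the 3 stages, with C1qtnf6 at 0.938 and Ap3s1 at 1.05 against all other endocardial cells at P2, where Slc9a3r2 was at 1.59 and Sptbn1 at 1.12.

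Nts, the precursor of the peptide neurotensin, had the highest mean ratio of the genes plotted. It was at 286 against 93.1 CPM at E15 (3.07, 2.36 to 4.02), in 58 of the Igfbp5/Cytl1 cells and 49 of the others. At P2 it was at 481 against 66.9 CPM (7.18, 4.71 to 11.5), with UMIs in 32.1% and 16.1% of cells and 13.2% of the Igfbp5/Cytl1 UMIs in 1 cell. Against all other endocardial cells at P2, however, Nts was at 870 against 1128 CPM (0.771, 0.723 to 0.822). The low P2 level of the like-for-like cells was therefore not that of the other endocardial cells as a whole, most of which held a valve gene. The same turn was seen for Lyve1, a hyaluronan receptor, at 4.35 (2.1 to 10.4) like-for-like and 0.769 (0.624 to 0.941) against all at P2.

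Nrg1, the endocardial growth factor that acts on heart muscle, was lower in Igfbp5/Cytl1 cells like-for-like. Its level was 30.5 against 62.5 CPM at E12 (0.488, 0.241 to 0.910), 26.5 against 68.6 at E15 (0.387, 0.201 to 0.693) and 66.2 against 122 at P2 (0.541, 0.351 to 0.838). Against all other endocardial cells it was at 0.624 and 0.514 in the embryo and 1.04 (0.775 to 1.38) at P2. Nr2f2, a transcription factor of veins and atria, was at 120 against 180 CPM, 159 against 208 and 131 against 244, with ratios of 0.664, 0.766 and 0.536. Epha7, an ephrin receptor, was at 178 CPM in the other cells at P2 against 82.4 in Igfbp5/Cytl1 cells (0.464, 0.320 to 0.673), and Ghr, the growth hormone receptor, at 180 against 101 (0.561, 0.396 to 0.799). Against all other endocardial cells at P2 the ratios of Nr2f2 and Ghr were 0.936 and 0.954.

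**Figure D4:**
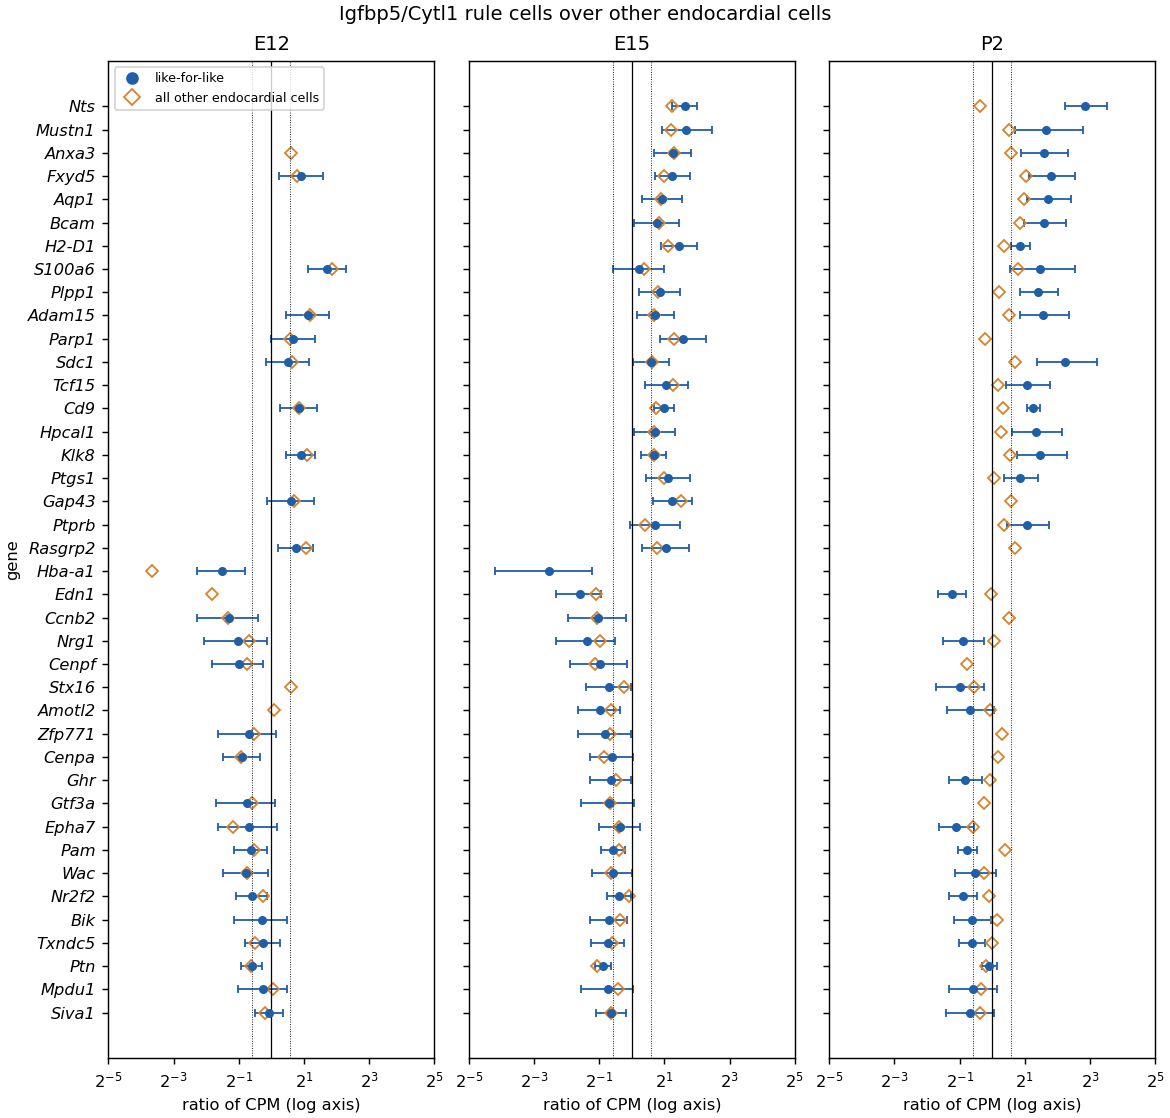
Ratio of CPM (log axis) in Igfbp5/Cytl1 cells over other endocardial cells for 20 genes on the higher and 20 on the lower side, like-for-like (filled, with exact 95% intervals) and against all other endocardial cells (open), where measured. The filled and open points lie apart for Nts at P2, at 7.18 and 0.771, and for Hba-a1 at E12, at 0.351 and 0.0787.

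Of 8 listed genes that respond to blood flow, 6 were past 1.5-fold higher and 1 lower at P2 like-for-like, where 8.00% and 4.51% of all measured genes were, and their median log2 ratio was 0.92. Klf2, the central flow-induced transcription factor, was at 1457 against 905 CPM (1.61, 1.42 to 1.83). Klf4, its relative, was at 213 against 64.0 CPM (3.33, 2.13 to 5.47), and Nos3, the endothelial nitric oxide synthase, at 120 against 61.1 (1.97, 1.21 to 3.33). Thbd, the anticoagulant thrombomodulin, was at 165 against 58.2 CPM (2.83, 1.76 to 4.80), and Ptgs1, a prostaglandin synthase, at 207 against 113 (1.82, 1.27 to 2.66). Pi16, a secreted protease inhibitor, was seen in 40 and 2 cells. Edn1, the vasoconstrictor endothelin, which laminar flow represses, was at 120 against 285 CPM (0.421, 0.313 to 0.567), with UMIs in 19% and 41.9% of cells. Cav1, the coat protein of caveolae, was at a ratio of 1.22 (1.01 to 1.47).

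In the embryo the list was less complete. Edn1 was again lower at E15, 41.7 against 126 CPM (0.330, 0.2 to 0.521), and Ptgs1 higher, 77.7 against 36.3 (2.14, 1.34 to 3.44). Klf2 had ratios of 1.15 (0.922 to 1.43) at E12 and 1.49 (1.27 to 1.74) at E15, inside 1.5-fold. Summed over the list the ratio was 1.15 (0.991 to 1.34), 1.24 (1.12 to 1.37) and 1.55 (1.42 to 1.69) at E12, E15 and P2. Against all other endocardial cells at P2 the sum was at 1.07 (1.03 to 1.10), with 2 of 8 genes past 1.5-fold higher and 0 lower, where 2.74% and 3.24% of all measured genes were. There Klf2 was at 1570 against 1536 CPM (1.02, 0.973 to 1.07) and Edn1 at 0.980 (0.807 to 1.18). In the adult, Klf2 was at 320 against 124 CPM (2.59, 1.41 to 5.07) against all other endocardial cells. The adult sum of the list was at 1.18 (0.995 to 1.39). There 1 of 5 measured genes was past 1.5-fold higher and 0 lower, against 6.82% and 5.34% of all measured genes. Valve genes outside the rule moved with the list at P2: they summed to a like-for-like ratio of 1.61 (1.24 to 2.09), and Pthlh, a secreted hormone-like peptide, was at 126 against 5.82 CPM, with 50.5% of its UMIs in 1 cell. Lymphatic genes summed to 1.84 (1.22 to 2.85) and cardiomyocyte genes to 1.59 (1.15 to 2.22) in the same comparison. The part of these 3 lists in the sum of the flow list was not tested. The P2 values were thus seen between cells without a UMI of Cldn11, Enpp2 and Postn, where 93 cells formed the other group, 45 of them of the Pla2g7 group, and not against all other endocardial cells.

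Like-for-like, 5 of 18 measured cell cycle genes were past 1.5-fold lower at E12 and 4 of 14 at E15, where 3.82% and 4.28% of all measured genes were, with 0 higher at either and median log2 ratios of -0.41 and -0.24, against 0.02 over all genes at E12. Ccnb2, a mitotic cyclin, was at 30.5 against 74.4 CPM at E12 (0.410, 0.203 to 0.756) and 28.4 against 57.8 at E15 (0.492, 0.259 to 0.878). Ccna2, the cyclin of DNA synthesis and mitotic entry, was at 25.4 against 68.9 CPM at E12 (0.369, 0.17 to 0.717). Cenpf, a kinetochore protein, was at 45.8 against 91.9 and 28.4 against 55.9 CPM, and Top2a, the topoisomerase of dividing cells, at 109 against 181 (0.604, 0.424 to 0.844) and 73.9 against 80.3 (0.920, 0.612 to 1.36). Erythroid markers were lower in the same comparison, at summed ratios of 0.544 (0.444 to 0.661) at E12 and 0.305 (0.190 to 0.472) at E15, as were mural ones (0.647, 0.453 to 0.906) and fibroblast ones (0.735, 0.606 to 0.886) at E12. At E15 cardiomyocyte markers were higher, at 2.50 (2.07 to 3.02), and so were macrophage ones, at 3.26 (1.79 to 6.08). Valve genes outside the rule were higher at E15 too, at 2.02 (1.50 to 2.71), and lymphatic genes at E12, at 1.71 (1.08 to 2.67). For all of these lists their part in the cell cycle ratios was not tested. Only 4 genes of the list could be measured at P2, with 0 past 1.5-fold. The sum of the list had ratios of 0.997, 1.01 and 1.02 at E12, E15 and P2. Its most abundant gene was Cdkn1c, an inhibitor of the cycle, at 4018 against 3298 CPM at E12 (1.22, 1.15 to 1.29). Cdkn1c stood at 376 CPM in coronary cells of that stage.

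The 8 endothelial genes summed to ratios of 1.42 (1.32 to 1.53) at E12, 1.10 (1.04 to 1.17) at E15 and 1.03 (1.00 to 1.06) at P2 against all other endocardial cells. At E12, 3 of 7 measured were past 1.5-fold higher, namely Kdr, Esam and Cdh5, where 4.82% of all measured genes were. Erythroid, mural, fibroblast and cardiomyocyte markers summed there to ratios of 0.124, 0.373, 0.560 and 0.819, and lymphatic ones to 1.69. Their part in the endothelial ratios was not tested. At least 1 UMI of the 8 endothelial genes was held by 88.5% of the E12 Igfbp5/Cytl1 cells and 75.5% of the other endocardial cells. The like-for-like cells were limited to those with a UMI of these same genes, so nothing is read from the like-for-like sums of 1.13, 0.998 and 1.00, and Kdr at E12 was there at 1.67 (1.31 to 2.12). Of the 10 endocardial genes outside the rule, 1 of 9 measured was past 1.5-fold higher and 1 lower like-for-like at E12, 2 and 1 of 8 at E15, and 1 and 1 of 8 at P2, with Nrg1 the lower one each time. The shares of all measured genes were 4.25%, 4.31% and 8.00% higher and 3.82%, 4.28% and 4.51% lower. Among the higher ones, Tmem100, a membrane protein induced by BMP, was at 1.63 (1.23 to 2.15), 1.55 (1.23 to 1.95) and 1.19 (0.921 to 1.56). Nfatc1, the transcription factor of endocardium and valve formation, was at 1.38 (0.876 to 2.15), 1.73 (1.06 to 2.82) and 1.86 (1.02 to 3.61). Among 30 endothelial transcription factors, 0 of 16 measured were past 1.5-fold higher at E12 and 1, Nr2f2, lower, where 4.25% and 3.82% of all measured genes were, and 4 of 19 measured were past 1.5-fold higher at E15, where 4.31% of all measured genes were, namely Sox18, Ets1, Nfatc1 and Tcf15. At P2, 2 of 16 were higher, Nfatc1 and Tcf15, and 3 lower, Sox7 (0.624, 0.435 to 0.902), Nr2f2 and Mecom (0.513, 0.323 to 0.817). The shares of all measured genes at P2 were 8.00% higher and 4.51% lower, so the count of higher factors was near that of all genes. Tcf15 at P2 was at 147 against 69.8 CPM.

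In the list of insulin-like growth factor genes without Igfbp5, 0 of 5 measured members at E12, 1 of 6 at E15 and 1 of 5 at P2 were past 1.5-fold higher like-for-like, and 0 lower. The shares of all measured genes were 4.25%, 4.31% and 8.00%, which these counts lay within 1 gene of. The members were Igfbp3 at E15 (1.68, 1.06 to 2.63) and Igfbp7 at P2 (2.62, 1.62 to 4.46), both binding proteins. Igf2, the ligand, was at ratios of 1.13, 1.14 and 1.06. Glutathione and redox genes without Gsta4 had 0 higher of 11, 16 and 13 measured and 1 lower at each stage, within 1 gene of the 3.82%, 4.28% and 4.51% of all measured genes, with sums of 1.00 (0.942 to 1.06), 0.987 and 0.981. Elastic fiber genes without Mfap5 summed to 0.893 (0.805 to 0.990) at E12, 0.998 at E15 and 1.16 (1.09 to 1.25) at P2. Eln, elastin, was at 99.2 against 176 CPM at E12 (0.565, 0.390 to 0.801) and 1437 against 1059 CPM at P2 (1.36, 1.20 to 1.53). All 15 oxidative phosphorylation genes were inside 1.5-fold at each stage.

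The like-for-like sums of basement membrane genes were 1.18 (1.10 to 1.27), 1.20 (1.13 to 1.27) and 1.16 (1.08 to 1.25), with 1 of 10 measured genes past 1.5-fold at each stage, near the 4.25%, 4.31% and 8.00% of all measured genes that were past it higher. In the adult, against all other endocardial cells, their sum was at 0.751 (0.629 to 0.896), with 1 of 2 measured genes past 1.5-fold lower, where 5.34% of all measured genes were. Agrn, a heparan sulfate proteoglycan, was at 148 against 72.5 CPM at E15 (2.04, 1.46 to 2.84) and 90.5 against 55.3 at P2 (1.64, 0.971 to 2.89). Peptide hormone genes and their receptors summed to 1.28 (1.19 to 1.39), 1.15 (1.08 to 1.22) and 1.25 (1.16 to 1.35), with Ramp2 the most abundant. Of 4, 6 and 7 measured, 1, 0 and 1 were past 1.5-fold higher. Past it lower were 0, 1 and 1, Edn1 being the lower one at E15 and P2. The shares of all measured genes were 4.25%, 4.31% and 8.00% higher and 3.82%, 4.28% and 4.51% lower, which these counts lay within 1 gene of. Ednrb, an endothelin receptor, was at 598 against 335 CPM at E12 (1.78, 1.51 to 2.1), 737 against 508 at E15 and 710 against 527 at P2. Against all other endocardial cells Ednrb at P2 was at 568 against 777 CPM (0.730, 0.674 to 0.789).

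Markers of other cells that the sort could still hold were read in the same way. Macrophage genes summed to at most 52.4 CPM and platelet genes to at most 35.3 CPM in Igfbp5/Cytl1 cells of any stage. At E15 the macrophage genes were at 52.4 against 24.1 CPM in the other endocardial cells (2.17, 1.35 to 3.48), and at 60.6 against 18.6 like-for-like (3.26, 1.79 to 6.08), with Lyz2 the most abundant. Of 9 macrophage genes 5, 2, 6 and 8 were at 0, in the same order of stages. Mural genes were at 137 against 367 CPM at E12 and 73.9 against 155 at E15, and below 14 CPM later. Epicardial genes were at 165 CPM at E12, 129 in the other endocardial cells and 15.1 in coronary cells, with Upk3b the most abundant at 68.3 CPM, and at 23.1, 36.4 and 6.52 CPM later. Lymphatic genes were at 90.3, 86.2, 138 and 189 CPM, Lyve1 being the most abundant from E15 on. Dcn, a proteoglycan used as a fibroblast marker, was at 63.9 (E12), 61.6 (E15), 354 (P2) and 2022 (adult) CPM, and at 2400 CPM in the other endocardial cells of the adult against 266 CPM in coronary cells. The 7 fibroblast markers summed to 3346 CPM in adult Igfbp5/Cytl1 cells, 2885 in the other endocardial cells and 402 in coronary cells. Col1a1 had 0 UMIs in both adult endocardial groups, which allows up to 19.6 CPM in the Igfbp5/Cytl1 cells, and 4 of the 7 fibroblast markers were at 0 in adult Igfbp5/Cytl1 cells.

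Cells chosen by the mirrored rule on Pla2g7, Prr15 and Apoc1 numbered 54 (E12), 121 (E15), 54 (P2) and 2 (adult). Against them, 28 of 459 genes (6.10%) were past 1.5-fold higher in Igfbp5/Cytl1 cells and 12 (2.61%) lower at E12. At E15 these were 59 of 955 (6.18%) and 25 (2.62%), and at P2 175 of 1666 (10.5%) and 84 (5.04%). Meg3, an imprinted long noncoding RNA, was at 346 against 84.0 CPM, 219 against 86.7 and 172 against 14.7, the last from 3 UMIs in the Pla2g7 group. Lgals1, a galectin, was at 897 against 238, 608 against 361 and 533 against 186 CPM. S100a10, the partner of Anxa2, was at ratios of 2.93 (1.56 to 6.20), 1.65 (1.28 to 2.16) and 2.56 (2.00 to 3.33), and Anxa2 itself at 1.29, 1.57 and 2.24. Crip1, a small zinc-binding protein, was at 2886 against 748 CPM at P2 (3.86, 3.28 to 4.56). Lower were Apoe, the carrier of lipids, at 811 against 1373, 2153 against 3576 and 3495 against 6648 CPM, and the regulators Nfia (0.651, 0.451 and 0.579) and Id2 (0.650, 0.598 and 0.592). Like-for-like against the other endocardial cells Apoe was at 0.781, 0.786 and 0.703. Of those other cells 5.45%, 10.4% and 48.4% were of the Pla2g7 group, so these values are not separate from the ones before.

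Between stages, levels within Igfbp5/Cytl1 cells can be set side by side but stand for 1 library each. Cdkn1c was at 3759 (E12), 2944 (E15), 1301 (P2) and 352 (adult) CPM. Igf2 was at 2119, 2883, 1701 and 241 CPM, and H19, the noncoding RNA next to it, at 7486, 9898, 9226 and 841. The matrix protein Fn1 went from 1271 through 1184 and 738 to 437 CPM. In the other direction, Vwf, the clotting factor carrier, was at 37.5, 78.5, 191 and 959 CPM. Emcn, a mucin of veins and endocardium, was at 438, 522, 1056 and 1396, and Pecam1, which encodes the sorted CD31 protein, at 207, 257, 712 and 1657. H2-D1, an antigen-presenting molecule, was at 57.3, 137, 682 and 3476 CPM. Cd9 was at 110, 334, 1914 and 2707 CPM and Apoe at 811, 2153, 3495 and 12653. The adult value of Apoe was far from the coronary one of the same library, 610 CPM, and close to that of the other endocardial cells, 12396 CPM. H2-D1 in the adult, in contrast, was at 3382 CPM in coronary cells as well.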

How the data were processed

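The authors prepared 10x Genomics single-cell libraries and processed them with Cell Ranger 2.2 on mm10, per the submitters' processing notes. The deposited values are UMI counts per gene and barcode, raw whole numbers for 27998 genes, and none was normalized. UMIs were summed over each cell group and expressed as CPM. Ratios carry exact conditional binomial 95% intervals, levels Poisson and shares binomial ones. A gene was measured where at least 20 UMIs were expected in each of the 2 groups, and 1.5-fold was used as a descriptive limit. No p-value was computed, since each stage had 1 library. Named genes were those of the rule, the 15 highest and 15 lowest mean log2 ratios among genes on 1 side of 1 at every stage measured (3 or more) and past 1.5-fold at 2 or more, the 5 extremes per stage, the 10 extremes against the Pla2g7 group, and listed genes past 1.5-fold at 2 or more stages. The members and the 36 lists (467 genes) were chosen with earlier results of these data known. The like-for-like comparison was added after the data were seen. Genes of the rule were left out of every list. Scripts were tested on simulated data. The alternatives changed the rule, depth, filters and comparison cells. Python 3.11.15, NumPy 2.4.6, SciPy 1.17.1, pandas 2.3.3, scanpy 1.11.5 and matplotlib 3.10.9 were used.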

Additional observations from a re-analysis of the deposited data

Results flagged for a closer look

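For 8 genes the ratio of Igfbp5/Cytl1 cells to other endocardial cells lay past 1.5-fold higher at 1 stage and past it lower at another. With 1 library per stage the differences between stages were not tested. Against all other endocardial cells, 7 genes did so. Igfbp7, a matrix-bound binding protein, had ratios of 2.60 at P2, 0.178 at E12 and 0.389 at E15. Vcan, a proteoglycan of developing valves, had 1.63 at P2, 0.373 at E12 and 0.538 at E15. Lum, a small matrix proteoglycan, had 2.86 in the adult, 0.439 at E12 and 0.349 at E15. Eln had 1.68 at P2, 2.13 in the adult and 0.596 at E12, and Fbln5, another elastic fiber gene, 2.23 at P2 and 0.301 at E12. Cyr61, a matrix-associated immediate-early gene, had 2.32 in the adult and 0.663 at E15. Tmem100 ran the other way, with 1.96 at E12 and 0.631 at P2. Like-for-like, Col1a2, a fibrillar collagen, had 2.26 at P2 and 0.539 at E12. The makeup of the other endocardial cells moved with stage too, since 22.2% of them held a valve gene at E12 and 89.1% at P2, and its part in these ratios was not tested.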

How the results depend on the processing

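The share of endocardial cells moved most with the rule. At E12 (18.7%) it was 34.2% with 1 UMI of the 4 genes, 10.4% with 3, 10.0% after thinning to 500 UMIs, 21.4% in cells with a Y-linked UMI and no Xist, 23.0% without the valve condition and 21.2% with an endothelial UMI in both groups. At E15 (24.9%) the first 5 settings gave 38.8%, 15.7%, 14.5%, 23.1% and 32.7%. At P2 thinning gave 35.8% and dropping the valve condition 82.9%, and in the adult the latter gave 81.3%. The number of genes past 1.5-fold was 7217, 6156, 5300 and 5933 with no minimum of UMIs and 72, 62, 116 and 24 with 50 expected, for E12, E15, P2 and adult. At E12 it was 161 with 3 UMIs of the rule genes, and in the adult 22 both without valve-gene cells among the others and like-for-like. The adult like-for-like count came from 30 and 12 cells, too few for a comparison, so nothing is read from it. Against the Pla2g7 group with 3 UMIs on each side it was 5 at E12 and 42 at E15. Like-for-like at P2, with 3 UMIs against none, it was 172, of which 81.4% were higher, against 64.0% of the 344 otherwise. The share of higher genes was 45.9% at E12 and 51.7% at E15, and 32.4% and 36.1% with no minimum. At P2 it was 45.8%, but 56.0% with 50 expected UMIs, 67.4% of 374 genes without valve-gene cells, and 32.2% of 286 genes when both groups had more Npr3 and Tmem108 than coronary UMIs. In the adult it was 56.1%, and 66.7% with 50 expected UMIs. With 1 UMI of the remaining 3 genes, the ratio of Igfbp5 left out was 1.36 at E12 and 1.67 at E15, and like-for-like at P2 the ratios left out were 1.90 for Igfbp5, 2.17 for Cytl1, 2.08 for Gsta4 and 13.4 for Mfap5. Directions reversed for the valve list at E12, at 1.00 without valve-gene cells and 1.03 like-for-like, for capillary and artery genes at P2 (0.973 and 0.949), and for the fibroblast list at P2 like-for-like (1.05). They also reversed for Col1a2 at E15 without valve-gene cells (1.09), for Pam at P2 like-for-like with 3 UMIs against none (1.05), and in adult cells with Xist and no Y-linked UMI for Aqp1 (0.817) and Heg1 (0.853). Causes were not tested. Of 807 alternative values of named genes 745 moved by less than their counting interval and 59 by more, besides those reversed. Of 487 like-for-like values 473 moved by less, 13 by more and 1 reversed, and of 1400 values of lists 1146 moved by less, 249 by more and 5 reversed. No paired analysis was possible because each stage had 1 library. Depth limited the embryonic and adult comparisons to genes of moderate level, and cells without a UMI of the 4 genes may still express them. The adult comparison rested on 56 and 43 cells, and the P2 like-for-like comparison on 93 other cells, with 48.4% from the Pla2g7 group.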
